A study of Ursus arctos with 12 samples.

Results

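The sarcomeric myosin heavy chains are the motor proteins of the thick filament of striated muscle, and 10 of them were looked for in the muscle counts of the brown bear: MYH1, MYH2, MYH3, MYH4, MYH6, MYH7, MYH7B, MYH8, MYH13 and MYH15. They were chosen by gene name, with earlier results of these data known. Of the 30249 rows of the count table, 2 carried a member's symbol (MYH7B and MYH15). Another 4 were listed under a LOC number whose NCBI gene ID the RefSeq gene table of assembly UrsArc2.0 pairs with a member: MYH1 (LOC113271213), MYH6 (LOC113246045), MYH7 (LOC113245998) and MYH8 (LOC113271210). No row was found by symbol or gene ID for MYH2, MYH3, MYH4 and MYH13, so these 4 were not analysed here under those names. They may still have been counted in rows without a name, such as the 5 beside MYH1 and MYH8 described below. All 6 members with a row passed the filter of at least 30 reads over the 12 libraries, as did 17290 genes in all.

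The libraries came from 6 free-ranging brown bears (Ursus arctos) aged 2 to 3 years, each biopsied in the vastus lateralis, a thigh muscle, during hibernation in winter and again during the active period in summer. The labels name no genetic change and no agent, and the season is the one difference between the groups that they give. Poly-A RNA was sequenced with strand kept, and reads were counted per gene. Between 20191068 and 27283155 reads were counted per library in summer and between 16742406 and 32140160 in winter. Both seasons were thus measured in the same animals, and a biopsy mixes muscle fibres with the other cells of the muscle. The summed level of 10 skeletal muscle markers was 111240 to 182894 CPM in summer and 114704 to 157476 CPM in winter, where CPM are counts brought to a common library depth by TMM scaling. The winter library of bear 1509 stood apart from the others of its season on the second principal component, at 98.6 against −23.1 to −6.35, and the values of MYH7 and MYH6 are also given without it.

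Each myosin heavy chain hydrolyses ATP and pulls on actin, and the isoform present sets how fast a fibre contracts and how much energy it spends. In adult limb muscle of mammals MYH7 marks slow fibres and MYH2, MYH4 and MYH1 mark fast fibres, while MYH3 and MYH8 are the embryonic and perinatal forms, known from development and regeneration. MYH6 is the alpha chain of the heart, MYH13 is known from the eye muscles, and MYH7B and MYH15 are ancient members of the family. The genes are close copies of each other and are partly clustered in the genome, so reads of 50 bases can fit several of them. How the counting treated such reads is not given in the sources used here, and the counts of MYH1 and MYH8, and of MYH6 and MYH7, are therefore uncertain where they could share reads. Transcript lengths of the assembly used by the authors were not available for scaling, so levels are compared between seasons and not between genes.

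Among the 6 members, MYH7B was higher in winter and MYH15 lower at an adjusted p below 0.05, and 4 did not pass (quasi-likelihood test of edgeR, adjusted over all genes tested by Benjamini-Hochberg, which gave each adjusted p unless another tool is named). Season was the only term of this fit, so it did not use the pairing of libraries by bear. Over all genes 39.5% were called in either direction, 19.6% higher and 19.9% lower, so a count of 2 of 6 is near the background. At a stricter limit (adjusted p under 0.01, with FC, the winter/summer fold change, over 1.3 or under 0.77) MYH7B alone was called, where 24.0% of all genes were. With the bear as a replicate block, MYH7 and MYH6 were called lower as well, which made 4 of 6 against 40.8% of all genes in that edgeR fit. DESeq2 with the same block called 3 of 6, without MYH6. The median log2 fold change (winter over summer) of the 6 was −0.69, and that of all genes tested was −0.00. MYH7B was the one member whose winter and summer levels did not overlap, a pattern seen in 17.3% of all genes. MYH7B was higher and MYH7 lower in winter in all 6 bears, and 37.4% of all genes kept the same direction in all of them. In bulk RNA, fewer cells of a type and less RNA per cell cannot be told apart.

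**Figure D1:**
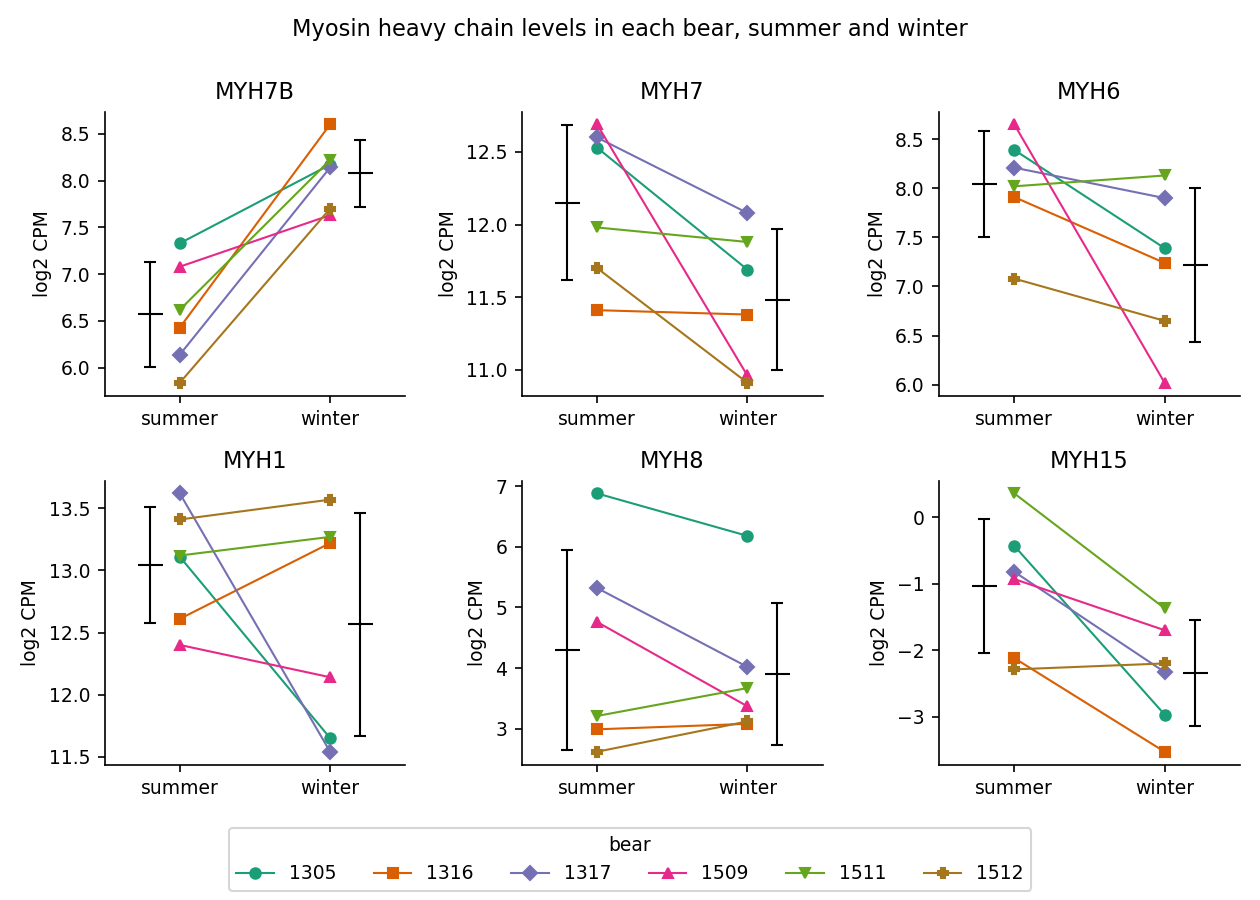
Level of each myosin heavy chain with a row, in log2 CPM (vertical axis, a separate scale in each panel), in summer and winter. Lines join the libraries of a bear, and the black bar and whiskers give the mean ± SD of 6 libraries. MYH7B rises in all 6 bears, MYH7 is lower in winter in all 6, and MYH1 is higher in 3 and lower in 3.

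MYH7B, a slow-type chain whose gene also hosts a muscle microRNA, rose in winter. Its level was 57 CPM in the lowest summer library, 92.1 at the median and 161 in the highest, against 198, 285 and 387 CPM in winter. Every winter library was thus above every summer library. The FC was 2.74, a log2 fold change of 1.45 with a standard error (SE) of 0.24 and an adjusted p of 0.000437. The log2 ratio of winter to summer within a bear had a median of 1.73, was lowest in bear 1509 (0.55) and bear 1305 (0.84) and highest in bear 1316 (2.17). These values rested on 1457 to 9218 reads per library, so counting noise was small. The call held under every alternative fit, with adjusted p from 1.75e-12 to 0.0031. Of all genes tested, 5.9% had a higher log2 fold change.

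MYH7, the slow beta chain of limb muscle and heart, was at lower levels in winter in all 6 bears. It narrowly missed the threshold in the fit that did not use the pairing by bear. The summer libraries held 2726, 4987 and 6590 CPM at the lowest, median and highest, and the winter libraries 1931, 2986 and 4323 CPM. The seasons overlapped, and 3 winter libraries were below the lowest summer library. The FC was 0.624 (log2 fold change −0.68, SE 0.26, adjusted p = 0.0511). With the bear as a block the log2 fold change was −0.66 (SE 0.21) and the adjusted p 0.0284, which is a call. DESeq2 with the block called it too (adjusted p = 0.0027). The drop within a bear ranged from −0.04 in bear 1316 to −1.73 in bear 1509 on the log2 scale. Without both libraries of bear 1509 the log2 fold change was −0.46 (adjusted p = 0.202), and without its winter library alone −0.59 (adjusted p = 0.0939).

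MYH6, the alpha chain best known from the heart, had 1172 to 9227 reads per library. Its level was 136, 278 and 402 CPM at the lowest, median and highest of summer and 64.7, 159 and 281 CPM in winter. The seasons overlapped, with 2 winter libraries below the lowest summer library and 5 of 6 bears lower in winter. The log2 fold change was −0.73 (SE 0.32, adjusted p = 0.0828), and −0.79 (SE 0.29, adjusted p = 0.0488) with the bear as a block. DESeq2 with the block did not call it (adjusted p = 0.0815). Bear 1509 had the largest drop, −2.63 on the log2 scale, and bear 1511 a value of 0.12. Without bear 1509 the log2 fold change was −0.42 (adjusted p = 0.257), and without its winter library −0.57 (adjusted p = 0.118).

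Most defining markers of heart muscle were at or near 0 beside MYH6. Of the 8 cardiac markers listed, NPPB, MYL7, NKX2-5 and GATA4 had 0 reads in all 12 libraries, NPPA at most 1 read and TBX5 at most 3, and TNNI3 had no row. TNNT2, a troponin T that immature skeletal muscle also makes, had 4.73 to 40.1 CPM in summer and 6.86 to 140 CPM in winter (adjusted p = 0.0891, and 0.0494 with the block). MYH6 reads were 3.92 to 8.1% of the reads on MYH6 and MYH7 together in summer and 3.15 to 6.94% in winter, higher in winter in 3 of 6 bears. With the season means removed, the levels of MYH6 and MYH7 correlated over the 12 libraries (Pearson's r = 0.825, Spearman's rho = 0.881), a description of chains that may share reads and that come from the same libraries.

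MYH1, a fast chain of adult limb muscle, was higher in winter in 3 bears and lower in 3. The summer libraries held 5389, 8858 and 12559 CPM at the lowest, median and highest, and the winter libraries 2973, 7026 and 12140 CPM. The ranges overlapped widely, although 3 winter libraries were below the lowest summer library. The log2 fold change was −0.32 (SE 0.35, adjusted p = 0.492). Within bears the log2 ratio was −2.08 in bear 1317 and −1.46 in bear 1305, −0.26 in bear 1509, and 0.15, 0.16 and 0.61 in bears 1511, 1512 and 1316. The SD of these season differences was 1.05 and that of the bear means 0.48, unlike measures that are not set against each other.

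MYH8, the perinatal chain, reached 118 CPM in summer and 72.2 CPM in winter in bear 1305, the highest value of each season. The summer libraries ran from 6.06 CPM through a median of 18.1, and the winter libraries from 8.36 CPM through a median of 11.4. The log2 fold change was −0.70 (SE 0.74, adjusted p = 0.478), with 3 bears higher and 3 lower. The bear means had an SD of 1.36 on the log2 scale and the season differences an SD of 0.86. Without bear 1305, left out after the data were seen, these SDs were 0.75 and 0.94. An SD of means and an SD of differences are unlike measures, so their order does not say which spread is larger. With the bear as a block the SE was 0.26, at a log2 fold change of −0.41 and an adjusted p of 0.23.

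MYH15 was at the edge of detection. It had 3, 10.5 and 30 reads at the lowest, median and highest of summer and 0, 3 and 5 in winter, which is 75 reads in summer and 16 in winter in all. Bear 1316 had 0 reads in winter, which by the limit of 3 reads allows a level of up to 0.118 CPM of the unscaled library. The rate of winter over summer was 0.222, with an exact 95% interval of 0.121 to 0.384 that covers counting error only. The fitted log2 fold change was −1.95 (SE 0.69, adjusted p = 0.0357), with 5 of 6 bears lower and bear 1512 at 0.09. The call was lost without bear 1305 (adjusted p = 0.116), bear 1317 (0.0834) or bear 1511 (0.0566).

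**Figure D2:**
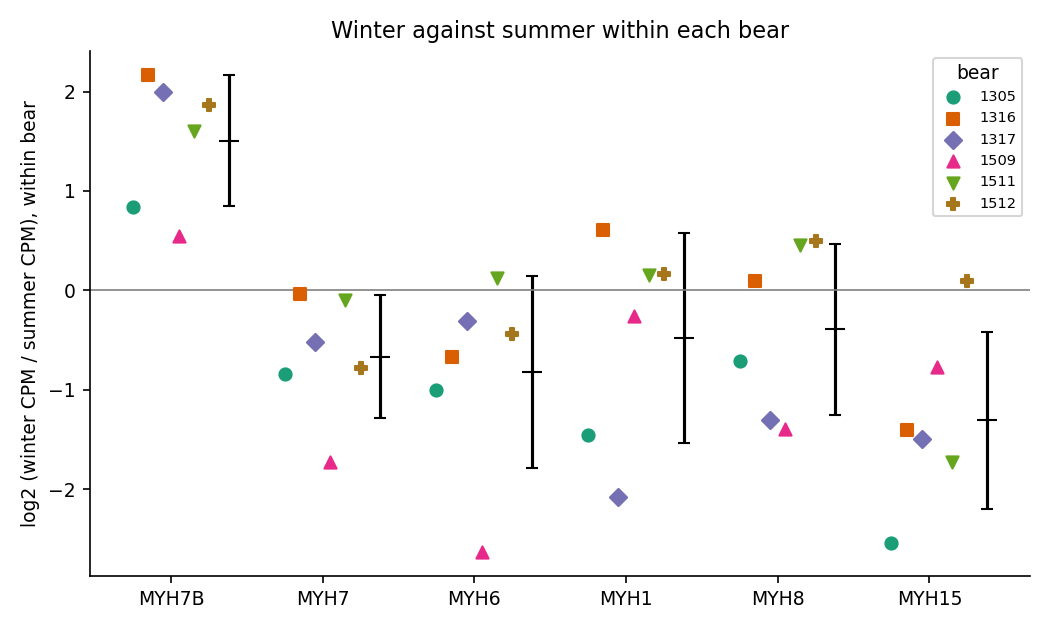
Log2 ratio of winter to summer CPM within each bear (vertical axis) for the 6 myosin heavy chains, with a symbol per bear and the mean ± SD of 6 bears in black. All symbols of MYH7B lie above 0 and all of MYH7 below it, while MYH1 and MYH8 lie on both sides.

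The fast chain MYH1 was set against the slow chain MYH7 within each library, a ratio that needs no scaling between libraries. The log2 ratio of reads was −0.29, 1.08 and 1.71 at the lowest, median and highest of summer and −0.54, 1.29 and 2.65 in winter. It was higher in winter in 4 of 6 bears, by 0.19 ± 1.11 (mean ± SD, n = 6), with differences from −1.56 to 1.47. An exact two-sided permutation test over the signs of the 6 differences gave p = 0.656, where the smallest p possible was 0.0312. A seasonal shift of this ratio was thus not detectable against the spread of the within-bear differences. MYH2 and MYH4, the other fast chains of adult limb muscle, could not enter the ratio. Nor did LOC113271214, an unnamed neighbour of MYH1 with 13701 to 23024 CPM in summer and 13484 to 20670 CPM in winter. The ratio therefore speaks for MYH1 and MYH7 only, and not for all fast chains.

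The ratio of MYH7B to MYH7 was higher in winter in every bear. Its log2 value was −6.46 to −4.99 in summer and −3.94 to −2.78 in winter, a difference of 2.17 ± 0.41 (SD, n = 6). This ratio was chosen after its values were seen and got no test. MYH7B had the larger share of the reads on the 6 members in winter in all 6 bears, at 1.44 to 4.08% against 0.367 to 1.08% in summer. MYH1 took 43 to 75.6% of these reads in summer and 38 to 84.4% in winter, and MYH7 took 23.1 to 52.5% and 13.4 to 55.2%. Reads on the unnamed neighbours of MYH1 and MYH8 are not in these shares. The 6 members together held 0.865 to 2.19% of a library in summer and 0.693 to 1.38% in winter, with 2 of 6 bears higher in winter. The 2 members listed by symbol held 0.00576 to 0.0162% and 0.0199 to 0.0363%, higher in 6 of 6 bears, so the seasonal mean difference of the sum by symbol alone was opposite in sign to that of all 6.

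**Figure D3:**
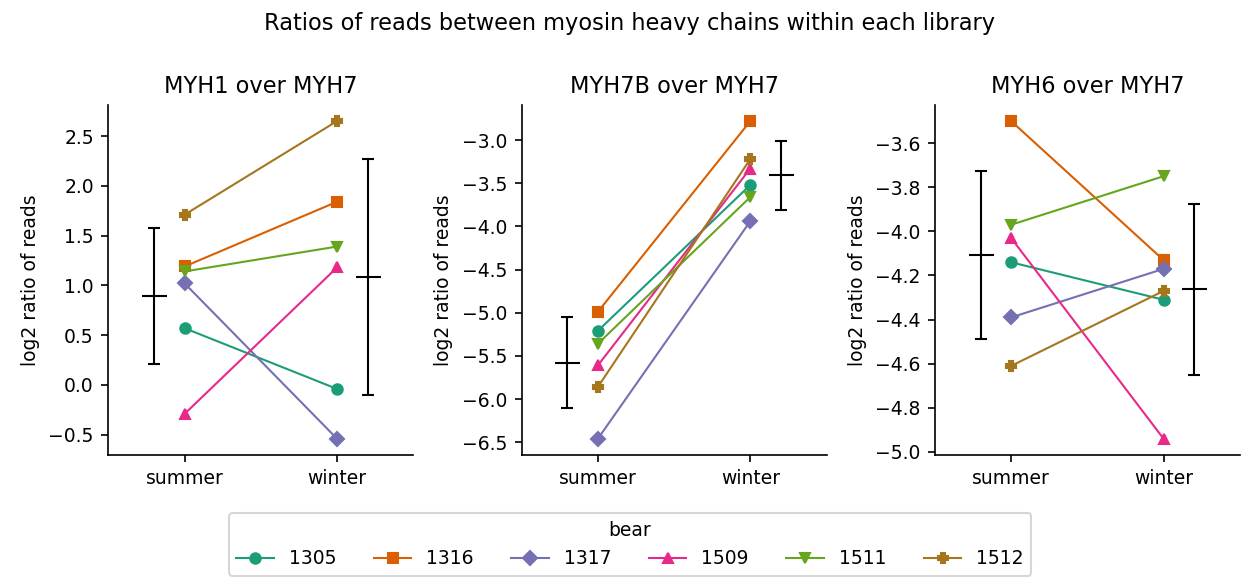
Log2 ratio of reads between myosin heavy chains within each library (vertical axis, a separate scale in each panel), in summer and winter, with lines joining the libraries of a bear and black bars for mean ± SD of 6. MYH7B over MYH7 is higher in winter in all 6 bears, MYH1 over MYH7 in 4 and MYH6 over MYH7 in 3.

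MYH1 and MYH8 lie in 1 cluster. In the RefSeq gene table the protein-coding genes between ADPRM and GAS7 are, in order, LOC113271216, LOC113271211, LOC113271214, MYH1, LOC113271212, MYH8 and LOC113271209. The 5 without a name were looked up after the count table had been seen, and no chain was assigned to any of them here. Whether any of them is MYH2, MYH3, MYH4 or MYH13 was not determined. LOC113271211 rose in winter (FC = 4.15, log2 fold change 2.05, SE 0.52, adjusted p = 0.00642). It had 4.66, 12.4 and 43.9 CPM at the lowest, median and highest of summer and 33.9, 61.8 and 171 CPM in winter, with 5 of 6 bears higher and bear 1509 at −0.37. LOC113271214, the most read of the neighbours, had 13701 to 23024 CPM in summer and 13484 to 20670 CPM in winter (log2 fold change −0.02, SE 0.17, adjusted p = 0.933). LOC113271216 was not called either (log2 fold change 0.22, adjusted p = 0.276).

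The remaining neighbours were highest in bear 1305 in both seasons, like MYH8. LOC113271212 had 100 CPM in summer and 29.7 CPM in winter in bear 1305, and a log2 fold change of −1.20 (SE 0.87, adjusted p = 0.291). With the bear as a block its log2 fold change was −0.33 (SE 0.24, adjusted p = 0.303). The median of its log2 ratio within a bear was −0.05. LOC113271209 reached 84.8 and 78.4 CPM in bear 1305, and its log2 fold change was −0.27 (SE 1.22, adjusted p = 0.876). With season means removed, MYH8 and LOC113271209 correlated at r = 0.961 (rho = 0.909) over the 12 libraries, a description in which bear 1305 supplies the highest values of both. Without that bear r was 0.9 (rho = 0.842) over 10 libraries.

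**Figure D4:**
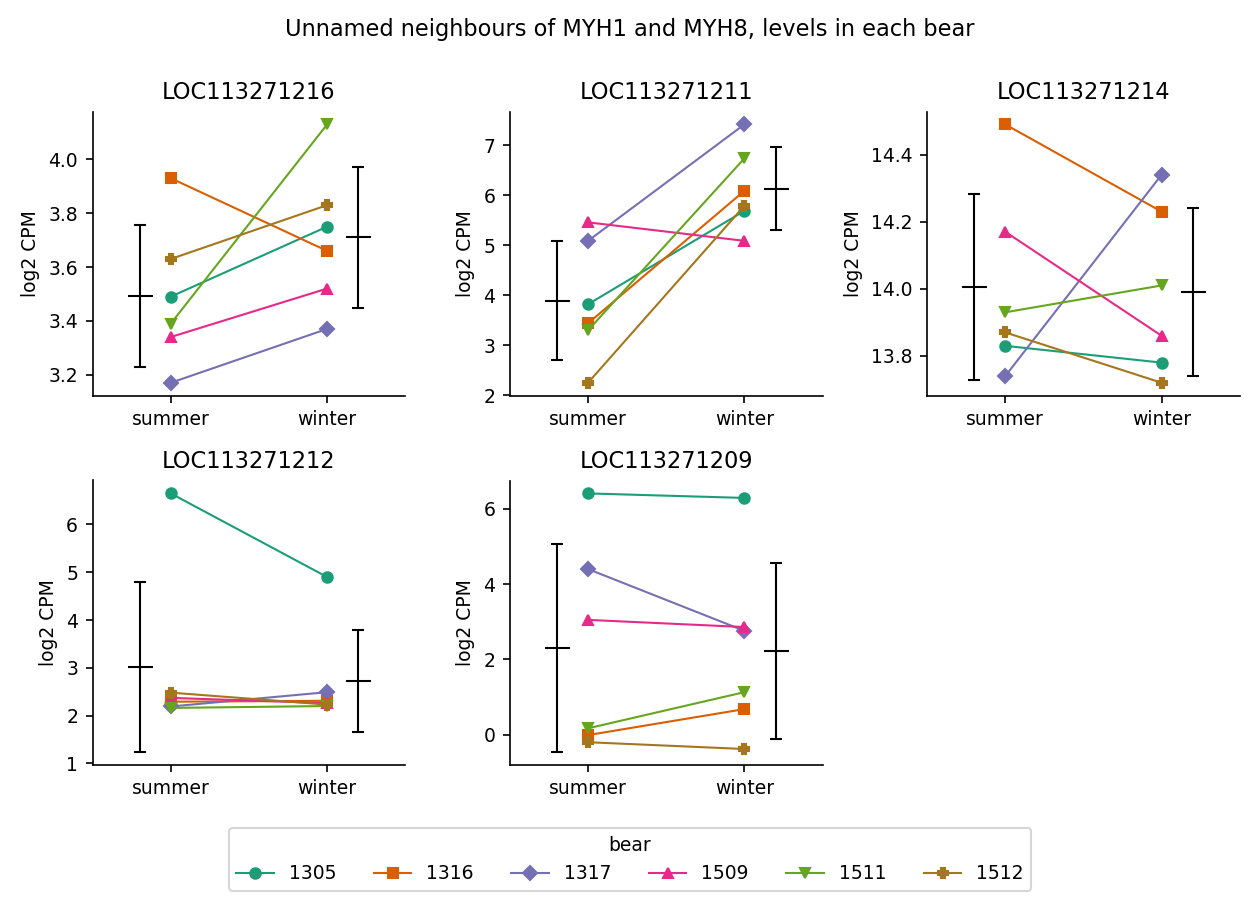
Level of the 5 unnamed genes that lie beside MYH1 and MYH8, in log2 CPM (vertical axis, a separate scale in each panel), in summer and winter, with lines joining the libraries of a bear and black bars for mean ± SD of 6. LOC113271211 is higher in winter in 5 of 6 bears, and bear 1305 stands highest in LOC113271212 and LOC113271209 in both seasons.

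By a fixed measure of likeness, Pearson's r of log2 CPM over the 12 libraries with season means removed, the gene nearest to MYH7 was TNNI1, the slow troponin I (r = 0.895), followed by SEPT8 (0.89) and UHRF1 (0.884). Nearest to MYH6 were SLC17A9 (0.935), LIMS2 (0.935) and ACTR1B (0.932). For MYH7B they were FOXR1 (0.897), which had at most 9 reads in a library, EPOP (0.884) and NAXD (0.868). MYH1 had ZNF174 (0.874), SLC22A15 (0.823, at most 10 reads) and SDR42E1 (0.815), and MYH8 had PI3 (0.922), EFCAB8 (0.918) and KREMEN1 (0.903). These are the best of many genes over few libraries and carry no test.

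The partners of the myosin heavy chains in the sarcomere were described from lists of genes, also chosen with earlier results of these data known. Of 10 slow-fibre genes of the sarcomere and of calcium handling, 1 rose and 1 fell, where 39.5% of all genes were called in either direction. Their median log2 fold change was 0.08. MYL6B, an essential light chain of slow and immature muscle, rose from 40.7, 69.6 and 212 CPM at the lowest, median and highest of summer to 277, 576 and 1166 CPM in winter. Its seasons did not overlap, and all 6 bears were higher (FC = 6.22, log2 fold change 2.64, SE 0.45, adjusted p = 0.000537). ATP2A2, the calcium pump of slow muscle and heart, fell (FC = 0.627, adjusted p = 0.0144), a call that was lost without bear 1305 (adjusted p = 0.0567) or bear 1317 (0.0603). MYOZ2, a Z-disc protein of slow fibres, had an FC of 1.45 (adjusted p = 0.229, and 0.027 with the block). TNNC1, the slow troponin C (FC = 1.26, adjusted p = 0.183), TPM3, the slow tropomyosin (FC = 1.16, adjusted p = 0.304), and CASQ2, a calcium store protein (FC = 0.803, adjusted p = 0.545), were not called.

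Of 12 fast-fibre genes with a row, 0 rose and 6 fell, beside 19.6% higher and 19.9% lower over all genes. Their median log2 fold change was −0.44, and DESeq2 called 7 lower. At an unadjusted p below 0.05, 0 were higher and 7 lower. MYBPC2, the fast myosin-binding protein C that sits on the thick filament, fell the most of these (FC = 0.425, log2 fold change −1.24, SE 0.16, adjusted p = 7.18e-05). It had 2443, 2876 and 3258 CPM at the lowest, median and highest of summer and 933, 1196 and 1661 CPM in winter, so the seasons did not overlap. MYLK2, the kinase of the myosin regulatory light chain, had an FC of 0.473 (adjusted p = 0.00346), ATP2A1, the fast calcium pump, 0.695 (0.00474) and ACTN3, the fast-fibre actinin, 0.593 (0.00909). CASQ1, the fast calcium store protein, fell (FC = 0.762, adjusted p = 0.0219, and 0.0806 without bear 1316). MYOZ1, a Z-disc protein of fast fibres, also fell (FC = 0.738, adjusted p = 0.03), a call that was lost with the block (0.0594) and without bear 1305 (0.0705), 1316 (0.122) or 1512 (0.11). MYL1 had no row. The 6 genes of the list that were not called, named after their values were seen, went both ways. MYLPF (FC = 1.21, adjusted p = 0.23) and TPM1 (FC = 1.23, adjusted p = 0.182) were higher in winter, each in 5 of 6 bears. TNNI2 (FC = 0.733, adjusted p = 0.0835), TNNT3 (FC = 0.816, adjusted p = 0.163), TNNC2 (FC = 0.788, adjusted p = 0.363) and PVALB (FC = 0.716, adjusted p = 0.622) had lower fitted levels.

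**Figure D5:**
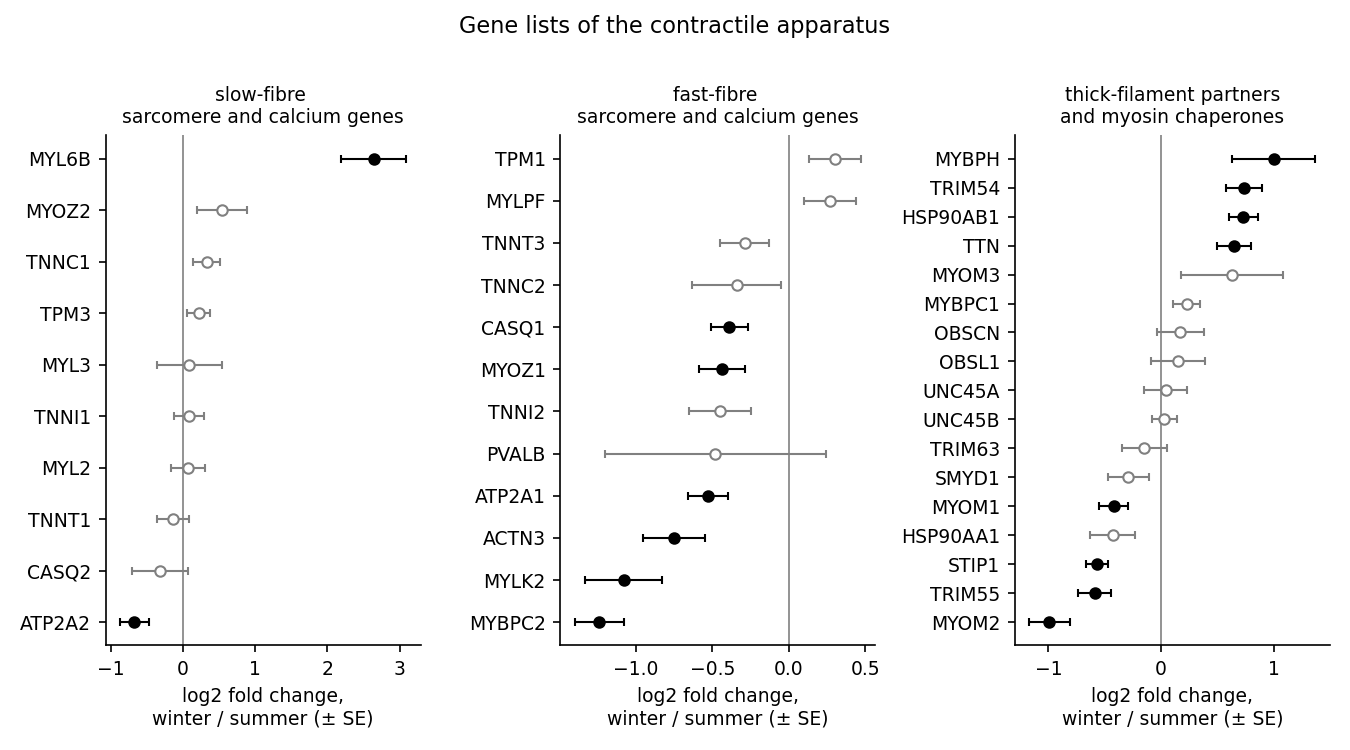
Log2 fold change of winter over summer (horizontal axis, a separate scale in each panel, whiskers ± SE) of genes of the contractile apparatus, in 3 lists. Filled symbols have an adjusted p below 0.05. The 6 called fast-fibre genes all lie below 0, and the called slow-fibre and thick-filament genes lie on both sides.

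The thick-filament partners and myosin chaperones were called in both directions, 4 higher and 4 lower of 17 tested (median log2 fold change 0.04). Over all genes 19.6% were higher and 19.9% lower. TTN, the giant spring that spans the thick filament, rose (FC = 1.57, adjusted p = 0.0036). HSP90AB1, an HSP90 chaperone (FC = 1.66, adjusted p = 0.000778), and TRIM54, a muscle RING-finger protein of the sarcomere (FC = 1.67, adjusted p = 0.00277), rose too. MYOM2, an M-band protein that links thick filaments in fast fibres, fell (FC = 0.502, adjusted p = 0.000654), as did the HSP90 co-chaperone STIP1 (FC = 0.675, adjusted p = 0.000601) and TRIM55 (FC = 0.665, adjusted p = 0.00687). MYBPH rose (FC = 2, adjusted p = 0.0437) and MYOM1 fell (FC = 0.749, adjusted p = 0.0217), both named after their values were seen to complete the counts. The call of MYBPH was lost without bear 1305, 1317, 1511 or 1512 (adjusted p from 0.0928 to 0.111), and that of MYOM1 without bear 1305, 1317 or 1509 (0.0612 to 0.0841). With library totals in place of TMM, MYBPH was not called either (adjusted p = 0.0555). Other genes of the list, also named after their values were seen, were not called. They were HSP90AA1 (FC = 0.741, adjusted p = 0.105), SMYD1 (FC = 0.816, adjusted p = 0.2), UNC45B (FC = 1.02, adjusted p = 0.828) and UNC45A (FC = 1.03, adjusted p = 0.892).

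Of 28 regulators of fibre type, 8 rose and 4 fell (median log2 fold change 0.14), and 5 rose without bear 1316. The share called over all genes was 39.5%, so these 12 calls are near the background. MEF2C, a muscle transcription factor, rose from 327 to 403 CPM in summer to 589 to 965 CPM in winter (FC = 2.22, adjusted p = 2.35e-05). MEF2A (FC = 1.89, adjusted p = 0.000176), the calcineurin subunit PPP3R1 (FC = 1.72, adjusted p = 0.000272), NFATC3, a factor that calcineurin activates (FC = 1.86, adjusted p = 0.000351), and EYA4, a coactivator of muscle homeobox factors (FC = 1.93, adjusted p = 0.000492), rose too. TEAD1, a factor that binds promoters of muscle genes, fell (FC = 0.695, adjusted p = 0.000655). The other calls lower were VGLL3 (FC = 0.472), NFATC4 (FC = 0.55) and PPARD (FC = 0.53), and the other calls higher were TBX15 (FC = 1.45), EYA3 (FC = 1.23) and TEAD4 (FC = 1.29), all named after their values were seen. TEAD4 was lost without any of 5 bears, each except 1509 (adjusted p from 0.0509 to 0.14), EYA3 without bear 1305, 1316, 1509 or 1511 (0.0639 to 0.118), and TBX15 without bear 1316 (0.069). Library totals and the fit with no filter did not call TEAD4 (0.0835 and 0.0621) or EYA3 (0.218 and 0.061).

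Of 16 genes of regeneration and denervation, states in which MYH3 and MYH8 are known to be made, 5 rose and 3 fell (median log2 fold change 0.07), where 19.6% of all genes were higher and 19.9% lower. CHRNE, the adult subunit of the acetylcholine receptor, rose (FC = 3.75, adjusted p = 0.000757), and so did CHRNG, its fetal counterpart (FC = 4.88, adjusted p = 0.00699), HDAC9 (FC = 1.92, adjusted p = 0.000497) and GADD45A (FC = 2.11, adjusted p = 0.00395). MYF5, a factor of muscle precursor cells, fell (FC = 0.243, adjusted p = 0.000122). MYMX, a peptide of myoblast fusion, also fell (adjusted p = 0.000534), from 0.157 to 0.716 CPM in summer to 0 to 0.084 CPM in winter. It had 4 to 15 reads per library in summer and 0 to 2 in winter, and was thus at the edge of detection like MYH15. MYF6 higher (FC = 1.66) and PAX7 lower (FC = 0.57) complete the counts and were named after their values were seen. MYF6 was not called without bear 1316, 1317 or 1512 (adjusted p from 0.0944 to 0.16), nor PAX7 without bear 1305, 1509, 1511 or 1512 (0.0638 to 0.0993). The limma voom fit did not call MYF6 (adjusted p = 0.067), and DESeq2 with the bear as a block did not call PAX7 (adjusted p = 0.087).

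The myosin heavy chains outside the sarcomere gave 0 genes higher and 1 lower of 4 tested, the same at an unadjusted p below 0.05 and by DESeq2 without a block. MYH9, a chain of the cytoskeleton of most cells, fell in all 6 bears, from 114, 176 and 244 CPM at the lowest, median and highest of summer to 81, 99.9 and 102 CPM in winter (FC = 0.544, adjusted p = 0.000977). MYH10 (FC = 0.662, adjusted p = 0.137), the smooth muscle chain MYH11 (FC = 0.759, adjusted p = 0.144) and MYH14 (FC = 0.931, adjusted p = 0.675) did not pass. MYH11 was called without bear 1305, which made 2 lower, and MYH10 by DESeq2 with the bear as a block (adjusted p = 0.0341). MYH16 had no row. Markers of cells other than muscle fibres moved beside MYH9. Beside 19.9% of all genes called lower, 5 of 8 fibroblast markers were lower and 0 higher, and their summed level was 853 to 1523 CPM in summer and 296 to 1198 CPM in winter. Of the endothelial markers tested, 4 of 6 were lower and 1 higher (588 to 921 against 396 to 460 CPM), and of the macrophage and leukocyte markers 4 of 7 were lower (61.1 to 114 against 41.9 to 74.2 CPM). Smooth muscle and pericyte markers were lower for 2 of 7 (504 to 637 against 281 to 358 CPM), adipocyte markers lower for 1 and higher for 1 of 6 (298 to 1379 against 218 to 463 CPM), and nerve and Schwann cell markers lower for 1 of 6 (46.8 to 102 against 42.7 to 156 CPM). Of the blood cell markers 0 of 2 were called (3.17 to 65.6 against 34.4 to 56.8 CPM), and of the skeletal muscle markers 2 of 10 were higher and 4 lower. Fitting the bear as a block, the calls lower were 7 for fibroblast, 4 for smooth muscle and pericyte, 5 for macrophage and leukocyte and 2 for nerve and Schwann cell markers, and the adipocyte marker called higher, LEP, was lost (adjusted p = 0.0629). LEP had 0 to 4 reads per library in summer and 0 to 19 in winter, near the edge of detection. The part of cells other than muscle fibres in the values of MYH9 and of the sarcomeric chains was not tested.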

How the data were processed

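The deposited values are counts of reads per gene, whole numbers that the authors neither normalized nor filtered. The authors used the TruSeq stranded mRNA kit, single reads of 50 bases, TopHat 2.1.1 against ASM358476v1, a limit of 3 mismatches and featureCounts 1.6.2 with strand, per the paper's methods and the submitters' processing notes. Which lane held which library is not labelled, and no lane effect could be looked at. Depth was 16742406 to 32140160 reads per library, and no copy of a library was found (lowest chi-square per gene 30.2).

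LOC rows were matched by gene ID to the RefSeq table of UrsArc2.0, which held 8070 of 14045 of them and gave 468 a symbol not otherwise in the table. That build is not the authors', so no coordinates were used. Some listed genes (TPM3 for example) were found in this way too.

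Genes with at least 30 reads over the 12 libraries (17290) were fitted with edgeR 4.0.16 (TMM, glmQLFit and glmQLFTest, season as the only term) in R 4.3.3, which was tested on simulated data. CPM and log2 CPM (prior count 2) use these scaled depths, ratios add 0.5 reads, and SE is the log2 fold change over the root of F. The paper names DESeq2 and no design formula. Alternatives were the bear as a block, DESeq2 1.42.0, limma 3.58.1 voom, RLE, library totals, no filter, filterByExpr, each bear left out, and the adjusted p below 0.01 with a fold change above 1.3 or below 0.77. Both libraries of a number come from the same bear, by the paper's methods. Deviations from season means correlated at 0.0903 to 0.344 within a bear and at most 0.142 between bears.

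The named genes were every member, up to 6 genes per list by smallest p, and the 3 nearest genes with a symbol for each member whose mean log2 CPM was 1 or more. The members and lists were chosen with earlier results of these data known. Intervals and floors cover counting error only, since reads had no molecular identifiers.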

Additional observations from a re-analysis of the deposited data

Results flagged for a closer look

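The level of MYH8 in winter was examined because a single library lay far from the rest. Bear 1305 had 6.18 log2 CPM, and the other 5 winter libraries had 3.08 to 4.02. The gap to the nearest library was 0.695 of the whole range of the 6, above the 95% critical value of Dixon's test. Of the 16 groups examined, 1 passed this limit, and chance passes about 1 in 20. The same bear had the highest MYH8 level in summer too, at 118 CPM.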

How the results depend on the processing

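As reported, 2 members were called. The replicate block by bear in edgeR gave 4, since MYH7 and MYH6 were added, and library totals in place of TMM also gave 4. DESeq2, DESeq2 with the block and limma voom each gave 3, and with DESeq2 and the block MYH6 had an adjusted p of 0.0815. At an adjusted p below 0.01 with the fold limits it was 1, MYH7B. Leaving out each bear in turn gave 1 to 3 members, with 1 left without bear 1305 or bear 1317, and leaving out the winter library of bear 1509 gave 2. In the gene lists other than markers the edgeR block changed 2 further calls, MYOZ2 gained and MYOZ1 lost, and the total stayed at 37. DESeq2 gave 40 calls, library totals 35, leaving out a bear 31 to 37, and leaving out the winter library of bear 1509, chosen after seeing the data, 39. The log2 ratio of MYH1 to MYH7 differed by −0.07 to 0.54 between seasons when a bear was left out (exact p from 0.188 to 1) and turned to −0.07 without bear 1509, and with no replicate block its p was 0.736. The mean seasonal difference in the share of library reads was 0.0163 percentage points for the members listed by symbol and −0.443 for all 6 with a row, which adds MYH1, MYH6, MYH7 and MYH8. For single members, no alternative changed the sign of a log2 fold change. MYH7 passed the threshold under DESeq2 (adjusted p = 0.0244, and 0.0027 with the block), limma voom (0.0498) and filterByExpr (0.0499), and its adjusted p over all alternatives was 0.0027 to 0.202. MYH6 also passed without bear 1511 (−0.96, adjusted p = 0.0432). filterByExpr removed MYH15. Depth limits MYH15 alone among the members, and the cause of the other changes was not tested.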
